A study of Macaca mulatta with 5 samples.

Results

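Rhesus macaque neural cells grown with the GSK3 inhibitor CHIR99021 were set against cells of the same lineage grown without it, across 2 cell states, to find the transcripts that differed in both states in the same direction. A gene was taken when its level in both CHIR-free libraries lay above, or in both lay below, the range of all 3 libraries with CHIR99021, and when at least 1 library held 20 or more of its reads. Of 16970 genes in the table, 12212 had that many reads, and 5315 of those (43.5%) met the rule. The CHIR-free cells stood higher for 3046 genes, which is 24.9% of those examined, and lower for 2269, which is 18.6%.

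GSK3 marks beta-catenin for destruction, and when GSK3 is inhibited beta-catenin builds up, enters the nucleus and acts with LEF/TCF factors to switch on WNT target genes. Several of those targets, such as AXIN2, NKD1, APCDD1 and ZNRF3, encode inhibitors that feed back on the pathway. In the neural tube WNT signals help keep progenitors dividing and give them posterior and dorsal positional identity, and CHIR99021 is used in culture to hold neuroepithelial cells in an early state.

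The 3 libraries with CHIR99021 were neuroepithelial stem cells (NESC) derived from monkey embryonic stem cells and sequenced at passages 5, 24 and 36, in medium with 3 µM CHIR99021, 5 µM SB431542 (an inhibitor of TGF-beta receptors), bFGF at 10 ng/ml and human LIF at 1000 U/ml. The radial glial progenitor cells, named RPGC in the labels and RGPC here, came from passage 36 NESC after 7 days in that medium minus CHIR99021, and the neurons came from passage 36 after 13 days of differentiation on laminin and gelatin. NESC had 1 library at each of the 3 passages, and RGPC and neurons had 1 library each, both from passage 36. Whether the libraries came from separate cultures is not stated in the labels. Recovered reads, the whole reads behind the deposited normalized counts, numbered 6808232, 5620416 and 7899991 for the NESC libraries, 6165818 for RGPC and 5403437 for neurons.

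The neuron medium also lacked SB431542, bFGF and LIF, so in neurons the absence of CHIR99021 cannot be told apart from the absence of those agents, from differentiation or from time. In RGPC it cannot be told apart from the conversion itself and its 7 days. RGPC and neurons are different states and not replicates of a CHIR-free condition. With 2 libraries against 3, an exact permutation test of a single gene cannot give a p below 0.2. A limma test of the CHIR-free libraries together against NESC, on log2(FPKM + 1), passed no gene at an adjusted p of 0.05 (0 of 12212, 0%). The lowest adjusted p in limma was 0.228, 2373 genes (19.4%) had an unadjusted p under 0.05, and edgeR on the recovered reads also passed 0 genes, with 2695 under 0.05 unadjusted. All levels and fold changes of the 5315 genes are therefore given as a description. FPKM counts fragments relative to transcript length and to the size of the library, and NESC values stand in the order of passages 5, 24 and 36. A difference in log2 means the mean of log2(FPKM + 1) in the CHIR-free libraries minus that in NESC, and over all genes examined its median was 0.04. The standard error after ± is from limma with 2 libraries against 3. It holds the spread between NESC passages and the distance between the 2 CHIR-free states, so it is not an error between replicates of a condition. By the rule, no gene of the set overlaps between NESC and CHIR-free libraries.

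**Figure D1:**
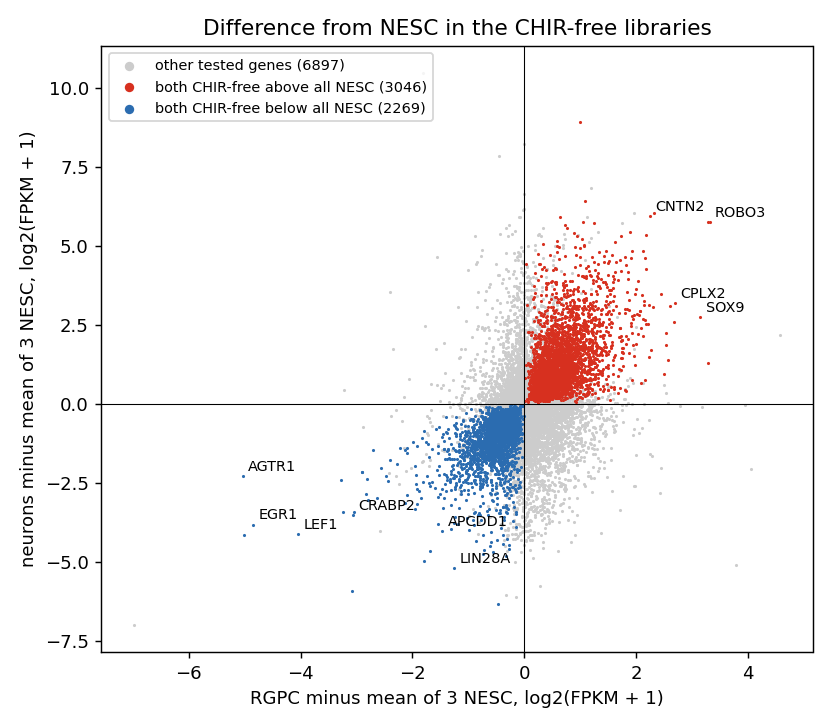
Each point is a gene with at least 20 reads, placed by log2(FPKM + 1) minus the NESC mean in RGPC (horizontal axis) and in neurons (vertical axis). Genes outside the NESC range on the same side in both are coloured. These are the 3046 higher and 2269 lower genes, and the genes farthest to the lower left include LEF1, EGR1 and AGTR1.

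The departure from NESC was wider in neurons than in RGPC. Among the higher genes the median difference from the NESC mean was 0.57 in RGPC and 1.08 in neurons, and among the lower genes it was -0.46 and -1.0. Most genes lay close to the NESC range. The gap, taken as the log2 distance between the NESC library and the CHIR-free library nearest to each other, had a median of 0.28 for higher and -0.25 for lower genes, and 615 higher genes (20.2%) and 517 lower genes (22.8%) had a gap under 0.1. A gap of at least 1 was found for 174 higher genes (1.42% of all examined) and 52 lower genes (0.426%), and a gap of at least 2 for 5 and 6 genes.

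Genes of the WNT pathway were counted by role. List counts here and below are to be read against the shares of all genes, 24.9% higher and 18.6% lower. With 1 NESC library left out the counts over all genes rose too, to between 3351 and 3696 higher and between 2578 and 2846 lower. Of 13 WNT and beta-catenin targets examined, 7 (53.8%) were lower in both CHIR-free libraries and 1 was higher, with a median difference of -1.17. The lower ones were LEF1, APCDD1, NKD1, AXIN2, CCND1, ZNRF3 and BAMBI, and the higher one was SP8.

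LEF1, the transcription factor that carries beta-catenin to DNA and is itself a target (ENSMMUG00000023256, chromosome 5, 100975189 to 101096845 in the deposited coordinates), had the widest gap of all lower genes that could be named. Its level was 13.0, 20.4 and 21.3 FPKM in the NESC libraries, from 203, 264 and 386 reads. In RGPC it was 0.144 FPKM, or 2 reads, and in neurons 0.0788 FPKM, or 1 read. Both CHIR-free libraries were thus near 0 while all 3 NESC libraries were above 10 FPKM, and the difference was -4.08 ± 0.37 (adjusted p = 0.228, limma).

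APCDD1, a membrane inhibitor of WNT receptors, was at 64.8, 107 and 90.9 FPKM in NESC, 30.5 in RGPC and only 4.34 in neurons. The 2 CHIR-free levels were far apart, with a log2 difference of -2.56 for neurons minus RGPC. Each of these states has 1 library, so such differences, here and below, have no spread of their own. NKD1, an inhibitor of Dishevelled, was at 13.2, 5.71 and 13.9 FPKM in NESC and showed the opposite order, 0.717 in RGPC and 3.12 in neurons. AXIN2, the scaffold of the complex that destroys beta-catenin, was at 38.9, 27.8 and 85.1 FPKM in NESC, with passage 36 the highest, and at 19.3 and 11.8 in RGPC and neurons. ZNRF3, a ubiquitin ligase that removes WNT receptors, was at 11.1, 11.8 and 15.6 FPKM against 6.20 and 4.16. In log2, neurons minus RGPC was 1.26 for NKD1, -0.67 for AXIN2 and -0.48 for ZNRF3.

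Other targets stood at the edge of the rule or outside it. CCND1, the cyclin that starts the G1 phase, was at 161, 361 and 204 FPKM in NESC and at 153 in RGPC, just under the lowest NESC library, and by the deposited normalized count it did not meet the rule. MYC, a driver of growth, was at 6.69, 7.97 and 16.6 FPKM in NESC, 6.69 in RGPC, within the NESC range, and 19.3 in neurons, above it. SP5 was too thinly read to enter, with 4 reads in each NESC library and 0 in both CHIR-free libraries. SP8, a factor of the SP family, was the exception in direction, at 17.2, 17.4 and 14.4 FPKM in NESC, 59.1 in RGPC and 22.6 in neurons. It was lower in the neuron library than in the RGPC library (log2 -1.35).

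Upstream of the targets, receptors and core components of the pathway did not share a direction: of 21 examined, 4 (19%) were higher and 1 (4.76%) was lower, and without passage 36 NESC 8 were higher. DVL3, a Dishevelled protein that relays the receptor signal, was at 36.6, 39.9 and 45.7 FPKM in NESC and at 82.5 and 83.4 in RGPC and neurons. APC, a part of the destruction complex, was at 11.2, 11.6 and 14.8 FPKM against 19.7 in RGPC and 56.6 in neurons. The receptor FZD10 was the lower one, at 22.8, 20.5 and 24.9 FPKM against 19.5 and 2.80, so its RGPC level sat just under NESC and its neuron level well under. Among 5 ligands examined 1 met the rule, or 3 without passage 24 NESC and 0 under quantile normalization. It was WNT7B, at 3.00, 22.7 and 3.67 FPKM in NESC and 24.1 and 39.6 in the CHIR-free libraries. Of 7 secreted modulators 2 (28.6%) were higher, near the 24.9% of all genes, or 1 under quantile normalization. Among the 2 was DKK3, a secreted protein of the Dickkopf family, at 4.12, 9.86 and 9.73 FPKM in NESC, 28.2 in RGPC and 209 in neurons.

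**Figure D2:**
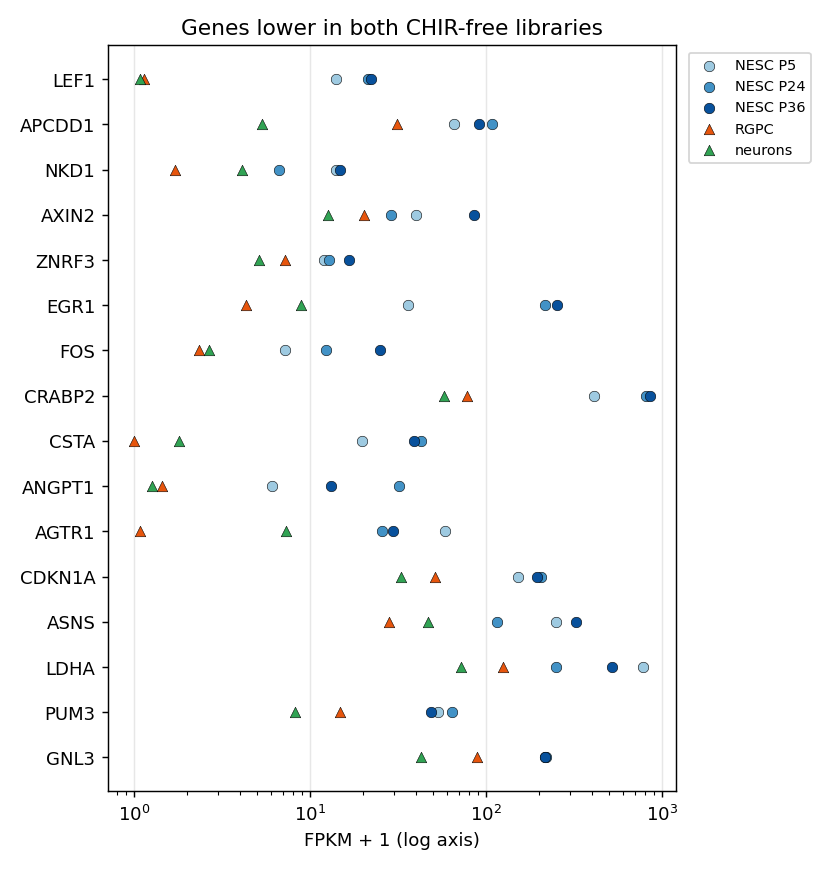
FPKM in each of the 5 libraries, on a log axis of FPKM + 1, for lower genes named in the text, with circles for NESC and triangles for RGPC and neurons. LEF1 and CSTA sit near 0 in RGPC and neurons and above 10 FPKM in all NESC libraries, whereas APCDD1 is spread between RGPC at 30.5 and neurons at 4.34.

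Genes induced by FGF through the kinase ERK made up another group of lower genes. Of 16 examined, 6 were lower and 0 higher, with a median difference of -0.94, and without passage 5 NESC 12 were lower. The RGPC medium held bFGF and the neuron medium did not. EGR1, an immediate early transcription factor, was at 35.2, 215 and 253 FPKM in NESC, 3.35 in RGPC and 7.89 in neurons. FOS, another immediate early factor, was at 6.22, 11.4 and 24.0 FPKM against 1.36 and 1.68. For both, passage 5 was the lowest of the NESC libraries and the CHIR-free libraries were lower still. SPRY2, a feedback inhibitor of the pathway, was at 64.6, 135 and 106 FPKM against 51.7 and 48.9, and ETV5, an ETS factor downstream of FGF, was at 6.98, 10.6 and 10.9 FPKM against 4.42 and 0.691. ETV4, its relative, met the rule by a hair, with 12.7 FPKM in both passage 36 NESC and RGPC (12.71 and 12.68).

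Of 7 genes around LIF and STAT3, 3 were lower and 0 higher. JUNB, an AP-1 factor, was at 10.3, 12.8 and 44.0 FPKM in NESC and 6.46 and 6.21 in RGPC and neurons. PIM1, a kinase induced by STAT3, was at 16.7, 19.6 and 44.0 FPKM against 9.72 and 14.5. IL6ST, the shared receptor chain gp130, was at 61.7, 434 and 101 FPKM against 43.9 and 24.7. Its FPKM per deposited normalized count differed 3.70-fold between libraries, so the passage 24 level is uncertain.

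Retinoic acid carriers split between directions. CRABP2 (ENSMMUG00000002295, chromosome 1, 135308562 to 135314045), which carries retinoic acid to its nuclear receptor, was at 413, 809 and 853 FPKM in NESC and at 77.6 and 56.6 in RGPC and neurons. This gave the third widest gap among the named lower genes, a difference of -3.29 ± 0.38, and the 2 CHIR-free levels lay within 1.5-fold of each other. CRABP1, the other carrier, was at 748, 710 and 209 FPKM in NESC and 1848 and 1756 in the CHIR-free libraries, a difference of 1.91 ± 0.60. STRA6, the receptor for retinol uptake, was at 6.78, 5.05 and 4.30 FPKM against 2.63 in RGPC, and it was listed at 0 in neurons. CYP26B1, which degrades retinoic acid, was nearly silent in NESC (at most 4 reads) and RGPC (12 reads, 0.619 FPKM) and stood at 21.1 FPKM in neurons.

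The remaining genes with the widest gaps on the lower side came from varied functions. CSTA, the protease inhibitor cystatin A (ENSMMUG00000006269, chromosome 2, 42327575 to 42344067), was at 18.8, 41.8 and 38.2 FPKM with CHIR99021, had no read in RGPC and was at 0.811 in neurons, or 1 read. AGTR1, the angiotensin II receptor, was at 57.9, 24.6 and 28.7 FPKM in NESC, 0.0809 in RGPC and 6.31 in neurons. ANGPT1, a ligand of the TIE2 receptor, was at 5.12, 31.1 and 12.1 FPKM against 0.454 and 0.271. RGPC was the lower of the CHIR-free libraries for CSTA and AGTR1, and neurons for ANGPT1. ZIC1, a factor of the dorsal neural tube, was at 5.18, 2.35 and 16.5 FPKM with CHIR99021, whereas it was listed at 0 in both CHIR-free libraries, from 21, 9 and 86 reads. TNFRSF10D, a decoy receptor for the death ligand TRAIL, was at 15.9, 5.85 and 3.86 FPKM in NESC against 0.194 in RGPC and a listed 0 in neurons. ADAMTS18, a secreted metalloproteinase, was at 4.77, 3.65 and 18.2 FPKM against 0.143 and 0.566.

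CDKN1A and CYSTM1 had tighter NESC values. CDKN1A, the cyclin-dependent kinase inhibitor p21, was at 151, 203 and 194 FPKM in NESC and 50.7 and 32.1 in RGPC and neurons, a difference of -2.14 ± 0.28. CYSTM1, a small membrane protein, was at 40.9, 44.5 and 36.5 FPKM against 11.7 and 6.36. Other inhibitors of the cell cycle went the other way: CDKN1B (p27) was at 55.5, 30.6 and 55.1 FPKM against 75.2 and 92.4, and CDKN2D (p19) was at 12, 6.95 and 10.5 against 16.8 in RGPC and 86.0 in neurons. SH2D5 and NR2C2AP completed the 5 lower genes with the widest gap among those whose CHIR-free levels were alike, at 4.69 and 3.31 FPKM for SH2D5 and 6.46 and 6.51 for NR2C2AP, where NESC held 12.2 to 14.5 and 17.9 to 27.8.

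The lower genes included much of the machinery of protein synthesis. The lists for it were added after the values had been seen, so their counts describe the set and do not test it. Of 66 ribosome biogenesis genes examined, 60 (90.9%) were lower and 0 higher, where 18.6% of all genes were lower. Their median difference was -0.67 in RGPC and -1.30 in neurons, and their summed level was 4897, 5337 and 5593 FPKM in NESC, 3324 in RGPC and 2016 in neurons. With the genes of widest gap (at least 1) taken out, 54 of 60 were lower, a cut by the same values and so also a description.

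GNL3, the nucleolar GTPase nucleostemin, had nearly the same level in every NESC library, 215, 218 and 216 FPKM, and stood at 88.3 in RGPC and 41.7 in neurons. PUM3, a nucleolar RNA-binding protein, was at 52.6, 63.5 and 47.6 FPKM against 13.9 and 7.26. LYAR, a nucleolar zinc finger protein, was at 64.7, 59.9 and 56.5 FPKM against 21.6 and 6.71. RPF2, which helps bring the 5S particle into the large subunit, was at 42.8, 59.7 and 57.8 FPKM against 17.5 and 2.90. In these 4 genes NESC was the highest group, RGPC intermediate and neurons the lowest. The log2 step from the RGPC library to the neuron library was -1.07 for GNL3, -0.85 for PUM3, -1.55 for LYAR and -2.25 for RPF2.

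Of 67 cytosolic ribosomal proteins, 54 (80.6%) were lower, with a median difference of -0.78. That count was 33 under quantile normalization, and ribosomal proteins have many near-identical pseudogene copies among which reads can be split. RPL8 was at 2850, 3133 and 2750 FPKM in NESC, 1691 in RGPC and 774 in neurons, and RPL13 was at 1785, 2128 and 1683 against 1089 and 822. RPS3A and RPS20 lay at the edge, RPS20 outside the rule by 0.02 of a log2 unit.

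All 8 subunits of the CCT chaperonin, which folds actin and tubulin, were lower, by a median of -0.99. CCT5 was at 389, 366 and 397 FPKM in NESC, 191 in RGPC and 128 in neurons, and CCT8 was at 573, 453 and 476 against 264 and 247. With genes at a locus shared with another gene left out, 4 subunits could be counted. Of 19 cytosolic tRNA synthetases, which load amino acids onto tRNA, 14 (73.7%) were lower. The leucine enzyme LARS1 was at 93.2, 79.1 and 98.8 FPKM against 39.7 and 37.2, and the phenylalanine subunit FARSB was at 77.1, 70.8 and 65.0 against 35.1 and 29.8.

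**Figure D3:**
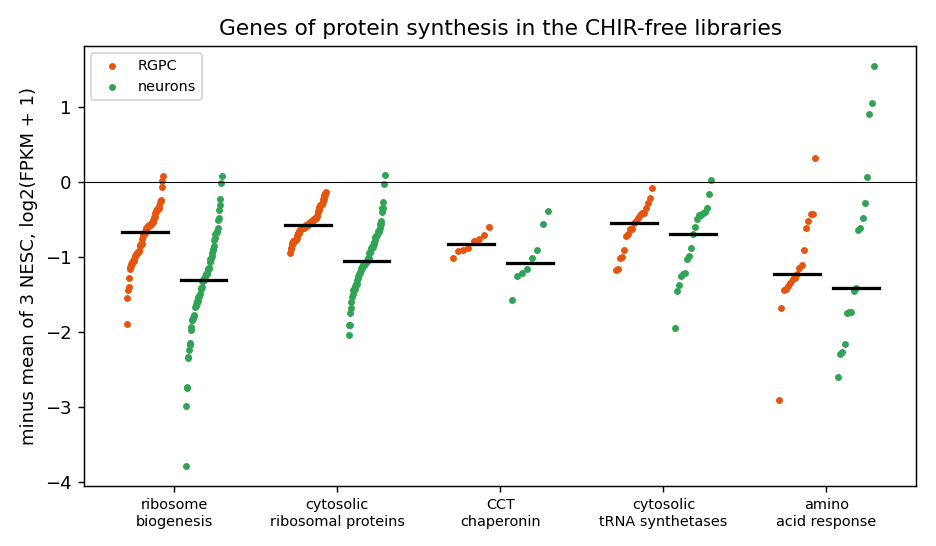
RGPC and neurons minus the mean of the 3 NESC libraries (log2(FPKM + 1), vertical axis) for every examined gene of ribosome biogenesis, ribosomal proteins, the CCT chaperonin, tRNA synthetases and the amino acid response, with 1 point per gene and a bar at each median. Ribosome biogenesis had a median of -0.67 in RGPC and -1.30 in neurons.

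Synthesis of amino acids and sugar breakdown also leaned to the lower side. Of 17 genes of the amino acid response, 9 were lower and 1 higher, with a median of -1.37. ASNS, the asparagine synthetase, was at 250, 115 and 325 FPKM in NESC and at 27.2 in RGPC and 46.2 in neurons. PHGDH, the first enzyme of serine synthesis, was at 238, 179 and 312 FPKM against 90.5 and 69.9, and SHMT2, a mitochondrial serine enzyme, was at 172, 128 and 204 against 67.1 and 49.1. Passage 24 was the lowest NESC library for all 3, and the CHIR-free libraries lay below it.

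Of 21 glycolysis and hypoxia genes, 12 were lower and 2 higher, with a median of -0.90 in RGPC and -1.44 in neurons. LDHA, which turns pyruvate into lactate, was at 784, 249 and 523 FPKM in NESC, 123 in RGPC and 71.3 in neurons. PGK1, a glycolytic kinase, was at 426, 254 and 327 FPKM against 138 and 120. HK2, an inducible hexokinase, was at 87.5, 22.5 and 22.5 FPKM against 10.3 and 0.442, whereas the muscle-type phosphofructokinase PFKM was higher without CHIR99021, at 66.3, 52.9 and 45.2 against 105 and 115. Of 17 genes of cholesterol synthesis 8 were lower and 1 higher, with a median of -0.42. HMGCS1, at the head of that pathway, was at 1334, 1532 and 1021 FPKM against 796 and 609, and DHCR7, its last enzyme, was at 88.6, 96.5 and 93.5 against 58.0 and 35.2.

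**Figure D4:**
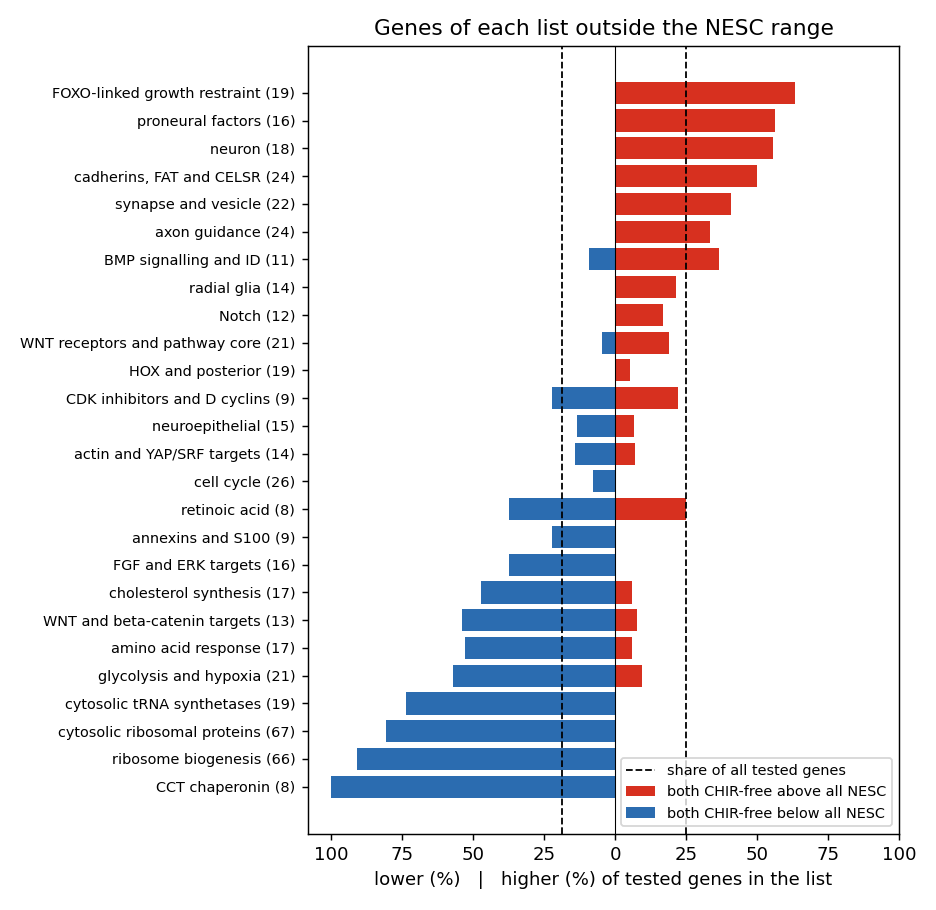
For each gene list of 8 or more examined genes, the share of its examined genes (percent, horizontal axis) that lay above or below the NESC range in both CHIR-free libraries, with the share over all 12212 genes as reference lines (24.9% higher and 18.6% lower). The number of genes stands beside each name. Ribosome biogenesis reached 90.9% lower.

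On the higher side, ROBO3 (ENSMMUG00000021576, chromosome 14, 123011269 to 123026851), an axon guidance receptor of crossing neurons, had the widest gap among the genes named. It was at 1.62, 0.563 and 1.61 FPKM in NESC, from 31, 10 and 39 reads, and at 20.9 in RGPC and 119 in neurons, from 397 and 1950 reads. The difference was 4.54 ± 0.75, and the neuron library was above the RGPC library (log2 2.45). CPLX2, complexin 2, which clamps vesicle fusion at synapses, was at 12.7, 11.4 and 9.23 FPKM in NESC and 76.8 and 108 in RGPC and neurons, within 1.5-fold of each other.

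SOX9 (ENSMMUG00000002412, chromosome 16, 67357425 to 67362825), which helps specify radial glia and their glial fate, was at 4.85, 4.82 and 2.19 FPKM in NESC, 41.2 in RGPC and 31.2 in neurons, a difference of 2.95 ± 0.39. KLHL24, an adaptor of a ubiquitin ligase, was at 2.19, 2.78 and 2.81 FPKM against 18.6 and 38.9. IGSF3, an immunoglobulin-like membrane protein, was nearly level within each group, at 8.89, 9.25 and 8.93 FPKM in NESC and 33.1 and 33.3 without CHIR99021. In log2, neurons minus RGPC was -0.39 for SOX9, 1.02 for KLHL24 and 0.01 for IGSF3.

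Other genes with wide gaps on the higher side came from several functions. KCNH8, a voltage-gated potassium channel, was at 2.27, 1.86 and 0.954 FPKM in NESC and 10.4 and 10.7 in RGPC and neurons. UNC80, a part of the sodium leak channel, was at 0.773, 0.751 and 0.589 FPKM against 7.45 and 13.4, with an FPKM per normalized count that differed 1.82-fold between libraries. CNTN2, an axonal adhesion protein, was at 3.30, 2.27 and 1.06 FPKM in NESC and at 13.6 in RGPC and 190 in neurons. The step between the CHIR-free libraries was 3.71 in log2. SPSB3 stood at 17.6 and 32.1 FPKM against at most 3.99 in NESC. FRY was at 10.3 and 34.3 FPKM against 1.77, 1.89 and 1.82 in NESC, from 10, 4 and 7 NESC reads. RIPOR2 was at 7.35 and 5.94 against 0.801, 0.557 and 0.0809, from 10, 6 and 2 NESC reads. Their FPKM per normalized count differed 2.21-fold and 1.71-fold between libraries.

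**Figure D5:**
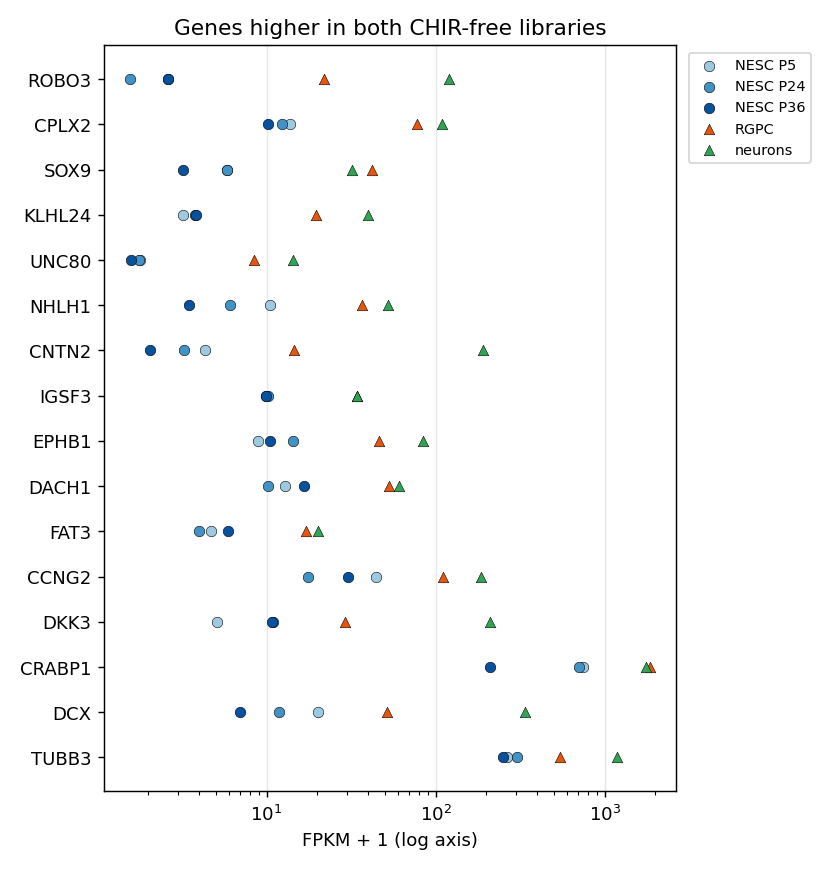
FPKM in each of the 5 libraries, on a log axis of FPKM + 1, for higher genes named in the text, with circles for NESC and triangles for RGPC and neurons. IGSF3 is level at 33.1 and 33.3 FPKM in RGPC and neurons, while CNTN2 stands at 13.6 in RGPC and 190 in neurons.

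Transcription factors of neurogenesis were higher in number and in level. Of 16 proneural genes examined, 9 were higher and 0 lower, with a median of 1.42, and without passage 5 NESC 14 were higher. NHLH1, a helix-loop-helix factor of newborn neurons, was at 9.51, 5.06 and 2.50 FPKM in NESC, 35.8 in RGPC and 51.3 in neurons. NEUROG3, a proneural factor, was highest in RGPC, at 19.9 FPKM, with 4.22 in neurons and at most 1.5 in NESC. It was lower in the neuron library than in the RGPC library (log2 -2.00). SOX4 and SOX11, factors of immature neurons, were at 71.0 and 142 FPKM in RGPC and at 319 and 284 in neurons, above every NESC library (32.5 to 46.9 and 63.8 to 86.0).

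Neuron markers were mostly highest in neurons. Of 18 examined, 10 were higher and 0 lower, and their summed level was 1163, 1276 and 1245 FPKM in NESC, 1765 in RGPC and 7173 in neurons. In bulk RNA, more cells of a type and more RNA per cell cannot be told apart, for these markers and for every gene below. DCX, a microtubule protein of migrating neurons, was at 19.2, 10.9 and 5.93 FPKM in NESC, 50.7 in RGPC and 338 in neurons. TUBB3, the neuronal tubulin, was at 265, 302 and 249 FPKM against 547 and 1179, and MAP2, a dendritic protein, was at 22.7, 28.0 and 53.5 against 92.2 and 436. The levels of neuron markers move with those of the axon, synapse and cell adhesion genes that follow, and their part in those genes was not tested.

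Of 24 axon guidance genes, 8 (33.3%) were higher and 0 lower, where 24.9% of all genes were higher. Without passage 5 NESC 13 of them were higher, and over all genes the count rose from 3046 to 3696. The ephrin receptor EPHB1 was at 7.93, 13.3 and 9.55 FPKM in NESC, 45.5 in RGPC and 83.4 in neurons, and the semaphorin SEMA6D was at 6.98, 3.67 and 3.30 against 20.2 and 36.9. Of 22 synapse and vesicle genes, 9 were higher and 0 lower, a count of 5 under quantile normalization or with genes at a shared locus left out and of 19 without passage 5 NESC. SYT1, the calcium sensor of vesicle release, was at 5.70, 3.97 and 6.87 FPKM in NESC, 15.2 in RGPC and 180 in neurons, and 15 of the 22 genes were higher in neurons than in RGPC past the limma test.

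Of 24 cadherins, FAT and CELSR genes, a list added after the values were seen, 12 were higher and 0 lower. Once those with a gap of at least 1 were taken out, 7 of 19 were higher. Both counts describe the list and do not test it. Large protocadherin-like proteins of planar polarity were among them. FAT4 was at 16.0, 27.6 and 20.2 FPKM in NESC and 65.7 and 63.3 in RGPC and neurons, FAT3 was at 3.66, 2.97 and 4.90 against 16.2 and 19.1, and DCHS1, a binding partner of FAT4, was at 6.17, 8.62 and 6.0 against 18.8 and 45.0. For FAT3 and FAT4 both CHIR-free states held about the same level.

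Another list, added after the values were seen, holds some of the genes known to be induced by FOXO factors or to restrain growth. It leaves out CDKN1A and GADD45A, which also restrain growth and were lower in both CHIR-free libraries. Its counts therefore describe only the genes chosen and do not test the group. Of its 19 genes, 12 (63.2%) were higher and 0 lower, and 6 of 13 were higher once those with a gap of at least 1 were taken out. CCNG2, an atypical cyclin that slows the cycle, was at 43.5, 16.6 and 29.2 FPKM in NESC, 110 in RGPC and 185 in neurons. PIK3IP1, an inhibitor of PI3-kinase, was at 1.08, 0.271 and 0.449 FPKM against 4.76 and 11.4, and YPEL3 was at 1.76, 1.74 and 4.02 against 12.3 and 36.8. Each was higher in neurons than in RGPC, by less than the test could call.

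Progenitor markers did not form a shared group. Of 15 neuroepithelial markers, 2 were lower (LIN28A and PLAGL1) and 1 was higher (DACH1). LIN28A, an RNA-binding protein that holds early developmental timing, was at 178, 327 and 309 FPKM in NESC, 109 in RGPC and 6.16 in neurons, and DACH1, a transcriptional co-regulator, was at 11.9, 9.18 and 15.7 against 52.2 and 59.8. SOX2, a factor of neural stem cells, was within the NESC range in RGPC (183 FPKM, against 153, 201 and 201) and at 105 in neurons. NES, the nestin gene, was at 518 FPKM in RGPC, above all NESC libraries (348, 467 and 470), and at 114 in neurons, below them. PAX6 had the same crossing pattern, at 136 FPKM in RGPC and 37.0 in neurons around a NESC range of 42.4 to 98.8. Of 14 radial glia markers 3 (21.4%) were higher, below the 24.9% of all genes, or 5 without passage 24 NESC. Among the 3 was SLC1A3, a glutamate transporter, at 16.8, 37.9 and 23.6 FPKM in NESC, 56.6 in RGPC and 200 in neurons.

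Cell cycle genes separated RGPC from neurons, and few met the rule. The median difference from NESC of the 26 genes of that list was 0.02 in RGPC and -3.96 in neurons, where all genes had 0.11 and -0.02. MKI67, a marker of dividing cells, was at 70.1, 45.2 and 84.6 FPKM in NESC, 69.4 in RGPC and 2.31 in neurons. CCNE1 and TYMS alone met the rule (14 genes did without passage 24 NESC), by RGPC levels just under NESC. CCNE1 was at 36.0 FPKM where its lowest NESC library was at 36.9, and TYMS was at 311 where the lowest was at 355. HOX genes were likewise not shared. Of 19 HOX and posterior genes 1 was higher (2 without passage 5 NESC), HOXA2, at 16.2, 21.6 and 13.1 FPKM in NESC, 31.2 in RGPC and 79.4 in neurons. HOXB9, at 116 FPKM in passage 5 NESC and listed at 0 in the other 4 libraries, tied with NESC at 0 and so could not meet the rule.

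Smaller groups held single genes. In the BMP list 4 of 11 were higher (1 under quantile normalization) and 1 lower, with ID4, an inhibitor of differentiation factors, at 30.4, 31.3 and 24.9 FPKM in NESC and 64.0 and 58.5 without CHIR99021, and the ligand BMP7 at 11.8, 9.46 and 7.51 against 2.18 and 3.33. Of 12 Notch genes 2 (16.7%) were higher, below the 24.9% of all genes, or 4 without passage 24 NESC. The 2 were NOTCH1 (20.4, 17.4 and 11.4 FPKM against 38.8 and 28.1) and NOTCH3 (17.7, 21.8 and 22.1 against 44.0 and 25.9). Of 4 IGF genes examined, 2 were lower (1 without passage 5 NESC) and 1 higher. IGF1R, the receptor, was at 14.5, 26.6 and 22.1 FPKM against 42.6 and 36.1, and IGFBP4, which binds IGF outside the cell, was at 34.3, 35.6 and 19.7 against 18.5 and 7.27.

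Of 7 oncofetal regulators 2 were lower, LIN28A and the chromatin protein HMGA1, which was at 794, 943 and 990 FPKM in NESC and 733 in RGPC but 127 in neurons. Targets of actin tension and YAP or SRF were lower for 2 of 14 (4 without passage 5 NESC) and higher for 1. ACTG2, a smooth muscle actin, was just inside the rule with 2.28 FPKM in RGPC where passage 24 NESC had 2.30. Annexins, S100 proteins and related genes were lower for 2 of 9 (22.2%), near the 18.6% of all genes. The count was 5 without passage 5 NESC and 1 with genes at a shared locus left out. Of 9 CDK inhibitors, D cyclins and GADD45 genes, 2 were lower and 2 higher. GADD45A, a stress-induced growth arrest protein, was at 37.2, 65.7 and 121 FPKM against 25.9 and 11.2.

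Markers of other cell types were few: no pluripotent cell marker had enough reads, no neural crest marker of 5 (1 without passage 5 or passage 36 NESC), and neither the single mesoderm marker nor the single endothelial or blood marker examined, met the rule, and the keratin gene KRT8 was lower, at 2.91, 14.1 and 10.8 FPKM in NESC, 1.03 in RGPC and a listed 0 in neurons.

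The difference between neurons and RGPC was tested over all genes. The rule had used both levels to fix their side of the NESC range, so counts of this test among the 5315 genes are a description. Over all genes, neurons lay within the NESC range for 16.7% and RGPC for 36.4%, so the wider departure in neurons is not particular to the set. The share that passed was smaller among the 5315 genes than among all genes. Neurons differed from RGPC for 1850 of the 12212 genes (15.1%), 758 of them higher in neurons (6.21%) and 1092 lower (8.94%). Of the 3046 genes higher without CHIR99021, neurons were above RGPC for 366 and below for 4. Of the 2269 lower genes, neurons were below RGPC for 300 and above for 0. The 4 exceptions were NEUROG3, SP8, ANKRD6, at 106 FPKM in RGPC and 39.2 in neurons, and GDPD2, at 50.2 and 18.5. RGPC and neurons stood within 1.5-fold of each other for 1529 of the higher genes (50.2%) and 1154 of the lower ones (50.9%). The spread in this test comes from the NESC passages, and each lone library is assumed to vary like them. Among the 5315 genes it passed 670, but 0 without the passage 24 NESC library.

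Gene length and position were not part of the rule. The span of the locus had a median of 33.8 kb for higher genes and 23.0 kb for lower genes, where all examined genes had 29.5 kb, and 24.9% of higher and 13.3% of lower genes spanned 100 kb or more, against 20.7% of all. Read depth was also unequal, with a median of 353 reads per gene and library for lower genes and 179.9 for higher ones. On chromosome 19, 290 of 790 genes (36.7%) were higher, and on the other chromosomes the share ranged from 18.3% to 29.6%. Genes named ZNF, most of which encode zinc finger repressors, were higher for 184 of 372 (49.5%) and lower for 17 (4.57%). On chromosome 19 they were higher for 95 of 166, on other chromosomes for 89 of 206 (43.2%), and the rest of chromosome 19 for 195 of 624 (31.2%). The median ZNF difference was 0.34 in RGPC and 0.61 in neurons. This pattern was chosen after it was seen, and ZNF genes share sequence with their paralogs, so reads may be assigned to the wrong copy.

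Several limits bear on the set as a whole. Among genes described above, CRABP1, DCX, MAP2, GNL3, YPEL3, PIM1 and MKI67 share their locus with another annotated gene, so the assignment of their reads is uncertain. Scaling moved the balance of directions: 57.3% of the 5315 genes were higher with FPKM as deposited, 50.6% after median-of-ratios scaling, 46.9% after quantile normalization and 49.7% with edgeR's scaling. Of the higher genes 313, and of the lower genes 166, had 20 or more reads only on the side where they were high, so they had to differ in order to be counted. A further 665 higher and 226 lower genes had fewer reads and were left out. A model that keeps RGPC and neurons as separate groups and averages their differences passed 3042 genes, of which 2387 met the rule, and its spread holds only the NESC passages. Without the RGPC library the limma test passed 4862 genes, and without the neuron library it passed 0. With RGPC or neurons left out, 1 library alone decided the rule, and counts widened over all genes as well as in the lists. Of all genes examined, neurons alone stood above the NESC range for 40.8% and below it for 42.4%. RGPC alone stood above it for 39.1% and below it for 24.5%. The list counts that follow are to be read against these wider shares, so a rise in a list is not by itself particular to that list. From neurons alone 26 cell cycle, 11 neuroepithelial, 11 actin and YAP or SRF, 10 FGF and ERK, 9 annexin and S100, 7 oncofetal, 5 LIF and STAT3 and 4 CDK inhibitor and D cyclin genes were lower. From neurons alone 22 synapse, 16 neuron, 15 axon guidance, 6 radial glia, 4 Notch, 4 HOX, 4 secreted WNT modulator and 2 WNT ligand genes were higher. From RGPC alone 12 WNT receptor and core, 6 Notch, 5 HOX, 5 radial glia, 5 secreted WNT modulator and 4 WNT ligand genes were higher.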

How the data were processed

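The members and lists were chosen with earlier results of these data known, and 6 of the 37 lists (ribosome biogenesis, ribosomal proteins, CCT chaperonin, tRNA synthetases, FOXO-linked genes, cadherins) and the ZNF pattern were added after values were seen. The authors' aligner was TopHat2 2.0.9, per the submitters' processing notes. Unknown are the counting program, build and annotation, not given in the sources used here. FPKM stands in the table that the authors deposited, per the file headers, beside a normalized count, a deposited signal whose values are whole reads multiplied by 1 factor per library. Division by that factor gave reads whole within 0.1 for all values but 1. Names came from the table for 10030 of 16970 genes, from RefSeq peptide or gene IDs for 2193 and 2243, and by description for 3, and 2501 had none.

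Genes with at least 20 reads in 1 library were tested two-sided with limma 3.58.1 (trend, R 4.3.3) on log2(FPKM + 1), Benjamini-Hochberg adjusted over all of them at 0.05. NESC were set against both CHIR-free libraries (3 residual degrees of freedom), and neurons against RGPC in a model with 3 groups (2 degrees). Alternatives were other pseudocounts, read filters, scalings and moderation, normalized counts, the 3-group model, edgeR 4.0.16 on recovered reads, leaving out each library and, added after seeing the data, genes at a shared locus. Scripts were tested on simulated data. No intervals were computed for single values, since the libraries are 1 per state, and reads are given for some of the genes where they were few. A gene listed at 0 can be a failed estimate: for 32 genes a library with 300 or more reads stood beside a library with 0.

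Genes were named by rule among members with a symbol, 50 reads and 5 FPKM in a library: the 12 widest gaps in each direction, the 5 widest in each whose RGPC and neuron levels lay within 1.5-fold, up to 4 per list, and 12 fixed genes. BAMBI, SP8, ANKRD6, GDPD2, ETV4, RPS3A, RPS20 and HOXB9 were named after their values were seen, as exceptions or at the edge of the rule. Of these 12212 genes, 1659 overlap another gene's locus, and the counting's use of strand is not given. Results for some genes are not reported here.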

Additional observations from a re-analysis of the deposited data

Results flagged for a closer look

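RGPC and neurons stood on opposite sides of the NESC range for some genes, and these were not in the set described above. For 1097 genes (8.98% of those examined) RGPC were above and neurons below every NESC library. NES and PAX6 belonged to this group. For 422 genes (3.46%) RGPC were below and neurons above. The opposite sides caught attention by their direction alone, and a difference between the responses of the 2 states to the absence of CHIR99021 was not tested beyond that limma comparison.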

How the results depend on the processing

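The limma test of CHIR-free libraries against NESC passed 0 genes with all 12212, and 6 with no filter on reads and 8 with a filter of FPKM of at least 1, all of them under 20 reads. It passed 3042 in the model with 3 groups, and from 0 to 4862 when 1 library was left out. The count was 4862 without RGPC and 1 without passage 24 NESC. Genes outside the range numbered 3351 to 4961 (higher) and 2578 to 5147 (lower) with 1 library left out, and 174 and 52 at least 2-fold outside it. Calls of neurons against RGPC among them were 338 with the FPKM filter and ranged from 0 to 873 with 1 library left out, the 0 being without passage 24 NESC. Under quantile normalization 4290 of the 5315 genes met the rule again (80.7% of them and 85.7% of those found there), with edgeR 4762 and with normalized counts 5053.

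Directions reversed for genes that were not in the set. With 1 library left out, the log2 difference of NES ran from -1.89 to 0.29, that of MKI67 from -4.31 to 0.10, that of MYC from -0.47 to 0.93 and that of PAX6 from -0.91 to 0.94. For MYC it was -0.00704 without passage 5 NESC, and for PAX6 -0.34 without passage 36 NESC and -0.00849 under median-of-ratios scaling. Of the named genes, 98 passed in the model with 3 groups and 98 without RGPC. The alternative that leaves out genes listed at 0 gave 2982 higher and 2231 lower genes. No paired analysis was possible because RGPC and neurons have 1 library each. Both came from passage 36, and only 1 NESC library was of that passage. Few reads limit LEF1, CSTA, ZIC1 and TNFRSF10D in the CHIR-free libraries and AGTR1 in RGPC, where a count of 0 to 2 reads fixes only that the level was low. ADAMTS18 had 4 reads in RGPC and 14 in neurons, and ANGPT1 had 15 and 8. NEUROG3 had 5, 4 and 3 reads in NESC, 67 in RGPC and 12 in neurons, so its differences also rest on few reads. Few NESC reads also limit FRY (10, 4 and 7), RIPOR2 (10, 6 and 2) and PIK3IP1 (14, 3 and 7).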
